A study of Mus musculus with 19 samples.

Results

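Of 90154 chromatin accessibility peaks measured in mouse neural stem and progenitor cells and in the astrocytes derived from them, 583 stood highest 24 h into differentiation and were lower again by 72 h and by 1 week. They were chosen by their mean normalised read counts in the untreated libraries. The 24 h mean had to be at least 50 and at least 2 times that of the undifferentiated cells and of both later times, and the 72 h mean had to be at least 10. These peaks are called the transient 24 h peaks. The term "open only at 24 h" would overstate what they are, because many were also accessible at other times. In the undifferentiated cells 150 of them had a mean of at least 50 and 36 a mean under 10.

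The measurement was ATAC-seq, in which a transposase cuts accessible DNA and inserts sequencing adapters, so that accessible regions collect more reads. The cells came from the ventricular zone of wild type C57BL/6J embryos at embryonic day 14 and were grown as floating neurospheres (NSPs) with EGF at 20 ng/ml. For differentiation the medium was exchanged for DMEM with 10% fetal bovine serum on coated plates, without or with the inflammatory cytokine TNF at 50 ng/ml. The 19 libraries were of NSPs (3), of untreated cells at 24 h (3), 72 h (3) and 1 week (4), and of TNF-treated cells after 24 h (3) and after 72 h (3). The labels name no other treatment or allele that separated the groups.

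Some features of the series bear on every value given here. The NSP libraries were the deepest, with 28636739 to 39349111 reads in peaks, and the other 16 had 9640256 to 25165008. The labels name single brains as the source but do not tie libraries to animals or cultures, so the p-values measure the spread between these libraries, which may be technical. The names of the 72 h and 1 week libraries, with or without TNF, carry a tag (Luc) that the NSP and 24 h names lack. Time and tag therefore cannot be told apart between 24 h and the later times, while the NSP libraries are untagged like those of 24 h. In bulk cells, fewer cells of a type and lower accessibility per cell cannot be told apart either.

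The labelled cell types were checked through the peak within 1 kb of an end of each marker gene. The peak of Hes5, a Notch target of neural progenitors, had a mean of 1976 normalised reads in NSPs, and of 744, 198 and 93.0 at 24 h, 72 h and 1 week of differentiation. The peak of Gfap, the intermediate filament protein of astrocytes, went from 108 to 489, 529 and 258 over the same groups. Of the 5 astrocyte markers with such a peak, 3 had a higher mean than in NSPs at 24 h and 3 at 1 week. The glutamate transporters Slc1a3 and Slc1a2 were lower at 24 h than in NSPs, 189 against 251 and 241 against 319. Summed over the 5 markers the level was 859 in NSPs and 1054 to 1322 in the untreated differentiating groups. From NSPs to 24 h Gfap alone rose by more than this sum did, so the other markers together were lower. Of 5 progenitor markers none had a higher mean at 24 h than in NSPs, and 2 had at 1 week, Sox2 (1258 in NSPs, 984 at 24 h and 1280 at 1 week) and Nes (435, 216 and 471). Their sum was 5031 in NSPs and 2274 to 2842 in the untreated differentiating groups, and Hes5 made up the largest part of this fall. None of these marker peaks was among the transient 24 h peaks.

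As background, regulatory DNA away from gene starts, such as enhancers, is accessible where transcription factors displace nucleosomes, and many such sites open and close within hours to days when cells change their medium or fate. Neurospheres moved from EGF into serum stop growing as floating spheres, attach and take up glial fates under factors such as NFI, STAT3 and SMADs. Immediate early factors of the AP-1 family, and SRF and TEAD factors, respond to serum and attachment. Accessibility of a site by itself does not say which gene it acts on, so gene names here give only the nearest protein-coding gene in the RefSeq table of GRCm38.p6 (mm10).

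Most of the transient 24 h peaks lay away from gene starts, and 4 of them covered part of a promoter window of RefSeq. Such a window runs from 250 bases before to 50 bases after an annotated start, and the table holds 32851 of them. The 4 windows are printed because they are the sequences of those tables that a member overlapped, and part of a window may lie outside its peak. They are given 5′ to 3′ in the direction of the gene, from RefSeq, GRCm38.p6. Capitals mark matches on either strand to the motifs searched.
Cpne4, chr9:104587808-104588107, plus strand, 300 bases inside the peak: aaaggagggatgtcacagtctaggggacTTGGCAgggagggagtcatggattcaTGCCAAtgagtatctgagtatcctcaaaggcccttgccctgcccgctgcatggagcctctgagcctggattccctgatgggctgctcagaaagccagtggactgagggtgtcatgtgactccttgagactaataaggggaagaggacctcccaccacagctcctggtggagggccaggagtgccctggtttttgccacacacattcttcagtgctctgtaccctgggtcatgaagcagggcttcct
Gm30149, chr7:73603315-73603614, minus strand, 213 bases inside the peak: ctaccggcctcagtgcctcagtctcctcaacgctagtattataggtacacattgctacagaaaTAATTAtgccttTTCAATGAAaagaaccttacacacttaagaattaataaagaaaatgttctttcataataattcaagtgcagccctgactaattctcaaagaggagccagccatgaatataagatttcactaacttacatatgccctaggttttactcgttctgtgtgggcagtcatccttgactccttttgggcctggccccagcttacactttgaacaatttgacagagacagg
Gm33290, chr7:51772729-51773028, plus strand, 217 bases inside the peak: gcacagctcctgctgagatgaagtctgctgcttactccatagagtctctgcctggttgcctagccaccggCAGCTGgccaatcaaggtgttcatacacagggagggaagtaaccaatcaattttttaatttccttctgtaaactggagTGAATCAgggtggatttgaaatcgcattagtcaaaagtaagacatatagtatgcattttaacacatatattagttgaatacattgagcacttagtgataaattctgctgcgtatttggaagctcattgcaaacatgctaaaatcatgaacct
Gm47708, chr10:95730076-95730375, plus strand, 292 bases inside the peak: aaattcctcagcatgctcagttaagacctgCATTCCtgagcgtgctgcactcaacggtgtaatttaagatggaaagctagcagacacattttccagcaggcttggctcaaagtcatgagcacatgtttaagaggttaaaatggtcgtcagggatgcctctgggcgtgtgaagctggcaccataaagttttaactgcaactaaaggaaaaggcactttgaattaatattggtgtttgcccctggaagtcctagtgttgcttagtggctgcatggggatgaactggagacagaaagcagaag

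The Cpne4 window, of a gene for a calcium-dependent membrane-binding copine, held the NFI motif TTGGCA at a pair of places. The other 3 windows belong to predicted genes. Gm30149 had the homeobox motif TAATTA and the STAT motif TTCNNNGAA, both among the first 87 printed bases, which lie outside the peak. Gm33290 had the AP-1 motif TGANTCA and the E-box CAGCTG, and Gm47708 had the TEAD motif GGAATG. The matches in Cpne4, Gm33290 and Gm47708 lie inside the peaks. Of all 32851 windows, 14.1% held the NFI motif, 5.29% TAATTA, 8.30% the STAT motif, 7.81% the AP-1 motif, 16.3% the E-box CAGCTG and 14.7% the TEAD motif. No matches overlapped. The motifs searched without a match in these 4 windows were the CRE motif TGACGT, the SOX motif ACAATG, the E-box CAGATG, the RUNX motif TGTGGTT, the ETS motif CCGGAAG, the FOX motif TGTTTAC, the POU motif ATGCAAA, the TCF/LEF motif ATCAAAG, the KLF/SP motif GGGCGG, the CArG box and the NF-kB motif. A match describes letters in a window and not a bound site, and 4 windows say nothing about the other members.

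The 24 h means of the 4 peaks were 166 at Gm47708, 153 at Gm33290, 78.8 at Cpne4 and 57.9 at Gm30149, and the median over all members was 101. At Gm47708 the peak had 143, 146 and 209 normalised reads at 24 h, 33.3, 53.2 and 47.2 in NSPs, 55.3, 65.8 and 80.3 at 72 h, and 25.6, 27.3, 28.6 and 13.9 at 1 week. With TNF it had 126, 134 and 142 at 24 h and 60.8, 54.7 and 32.4 at 72 h, so the TNF-treated groups did not overlap (log2 change −1.47 ± 0.22 SE, adjusted p = 1.3e-06, limma). At Gm33290 the peak had 148, 143 and 169 at 24 h and 39.1, 50.4 and 61.1 in NSPs. With TNF it had 164, 159 and 109 at 24 h and 72.4, 66.5 and 88.8 at 72 h, without overlap (log2 change −0.90 ± 0.19, adjusted p = 0.00024, limma). At Cpne4 the 24 h mean with TNF was 60.7, and the groups of the other times had means of 22.2 to 38.0. At Gm30149 the libraries with TNF had 27.4, 29.1 and 50.9 at 24 h and 27.7, 13.3 and 14.4 at 72 h, which overlap (log2 change −0.94 ± 0.38, adjusted p = 0.054, limma).

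Over the transient 24 h peaks as a set, the median normalised read count per library was 100, 94.4 and 115 in the 3 libraries at 24 h. It was 32.1, 29.2 and 31.2 in NSPs, 39.9, 39.5 and 39.5 at 72 h, and 30.9, 29.6, 33.0 and 26.8 at 1 week. Replicates lay close together and 24 h stood apart from every other untreated group, which is what the rule selects and is given as a description. The median over all 88919 peaks tested was 80.0 to 89.3 in every library, so at 24 h the set moved from below to above the typical peak.

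**Figure D1:**
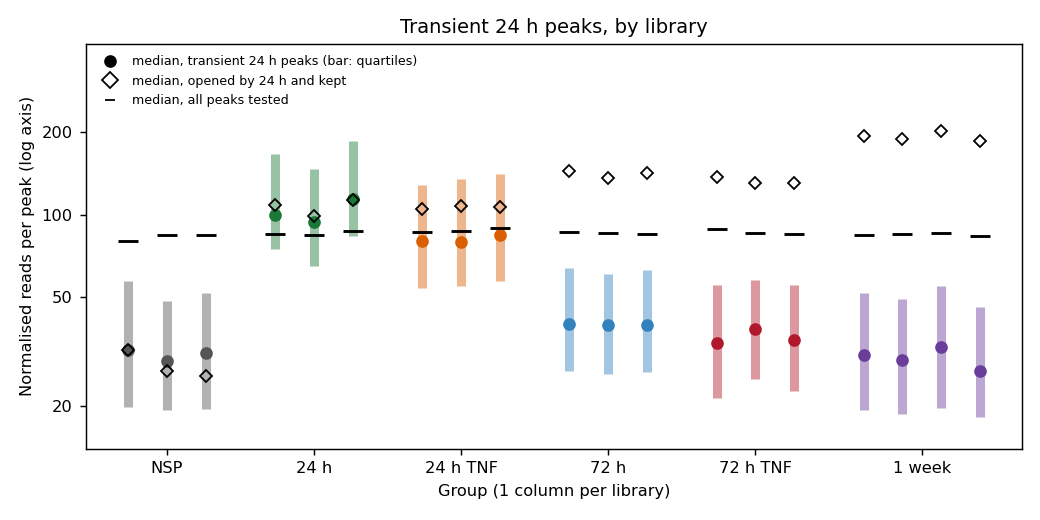
Median normalised reads per peak (log axis) in each of the 19 libraries, for the 583 transient 24 h peaks (filled points, bars from the lower to the upper quartile), for 6194 peaks opened by 24 h and kept (diamonds) and for all peaks tested (dashes). The transient 24 h peaks have medians of 94.4 to 115 at 24 h and 79.7 to 84.1 at 24 h with TNF, and of 26.8 to 39.9 in all other libraries.

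The ratio of the 24 h mean to the highest of the other untreated means had a median of 2.32 and reached 7.14. It was at least 3 in 68 members and at least 4 in 15. In 553 members each 24 h library lay above all 10 other untreated libraries, against 3.46% of all peaks tested, a count the rule largely sets, and in 30 the libraries overlapped. The highest of the 3 libraries at 24 h was replicate 3 in 348 members, replicate 1 in 162 and replicate 2 in 73. In 10 members a single library held over 50% of the summed 24 h signal. Without replicate 3 at 24 h the rule gave 495 peaks, 441 of them among the 583.

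What followed the 24 h maximum differed among members. Of the rise from NSPs to 24 h, a median of 8.78% remained at 72 h (quartiles −4.67% and 20.7%) and −3.03% at 1 week (quartiles −21.5% and 11.3%), where a negative share means a level below that of NSPs. The mean lay below that of NSPs in 177 members at 72 h and in 320 at 1 week. From 72 h to 1 week it went down further in 463 members (79.4%). The group with the next highest mean was 72 h in 340 members, NSPs in 151 and 1 week in 92.

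The extremes show the range. In 110 members the 72 h mean was still at least 2 times that of NSPs, and in 8 it was at most 0.5 times. At 1 week these counts were 62 and 64. Accessibility came back in part in 4 members, whose 1 week mean was at least 2 times the 72 h mean. One is in Chrnb3, a nicotinic acetylcholine receptor subunit, and had 21.6, 38.2 and 65.1 normalised reads in NSPs, 189, 183 and 217 at 24 h, 20.6, 29.9 and 51.0 at 72 h, and 71.4, 78.7, 112 and 38.6 at 1 week. The 72 h and 1 week libraries overlapped there. The other 3 were nearest to Lurap1l, Csmd1 and Defb33.

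The 10 members with the highest ratio were nearest to genes of varied function. At the peak 97.2 kb from Ptger3, a prostaglandin E2 receptor (chr3:157741668-157742168), the values were 78.6, 72.3 and 118 at 24 h, 8.18, 12.7 and 10.6 in NSPs, 14.2, 10.8 and 12.7 at 72 h, and 4.41, 9.35, 11 and 5.36 at 1 week. This site was low in NSPs, stood at 7.14 times the next highest mean at 24 h, and by 72 h its libraries overlapped those of NSPs again. With TNF it had 92.9, 89.4 and 71.7 at 24 h and 15.2, 10.3 and 24.0 at 72 h (log2 change −2.36 ± 0.32, adjusted p = 2.2e-07, limma).

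The peak 142 kb from Dock10, a guanine nucleotide exchange factor of small GTPases (chr1:80900693-80901193), did not return to its starting level. It had 281, 257 and 323.9 at 24 h against 7.01, 8.48 and 4.65 in NSPs, and kept 37.3, 32.3 and 53.5 at 72 h and 33.5, 31.2, 22.0 and 31.1 at 1 week. With TNF it had 175, 207 and 200 at 24 h and 38.4, 50.3 and 32.4 at 72 h. Each later untreated library therefore stayed above each NSP library.

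Near Lrrc55, an auxiliary subunit of potassium channels, the 24 h values were 130, 79.7 and 159 and no library of NSPs, 72 h or 1 week exceeded 23.1. In Ap5z1, a subunit of the AP-5 adaptor complex, they were 196, 137 and 196 against at most 43.8. In Nisch, which encodes an integrin-binding protein, they were 96.8, 76.7 and 118 against at most 33.0. The next in order were near Tmem26 and in Vav3, an exchange factor of small GTPases like Dock10, then in Ccdc170, in Cntn5, a neuronal adhesion molecule of the contactin family, and near 4930519L02Rik. Their ratios were 4.86, 4.66, 4.51, 4.36 and 4.31.

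**Figure D2:**
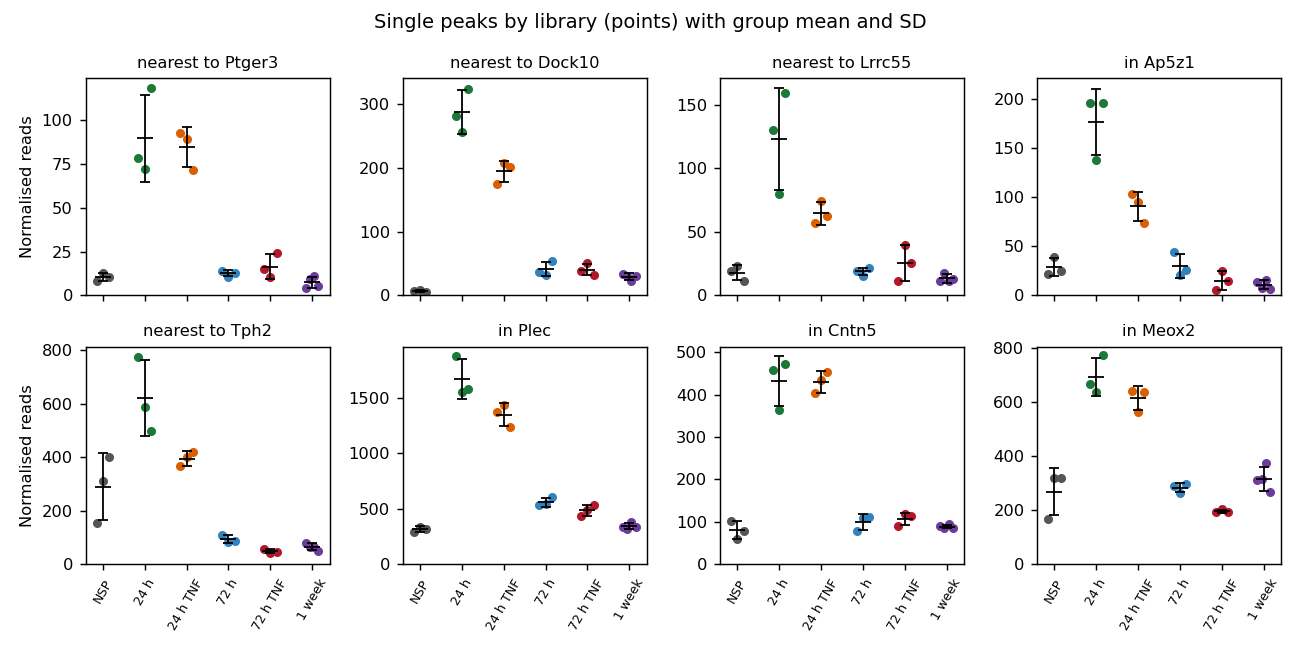
Normalised reads (linear axes) by library for 4 peaks with the highest ratio (upper row) and 4 with the smallest p in the comparison of the TNF-treated times (lower row), with the group mean and SD as bars over n = 3 libraries (n = 4 at 1 week). In each panel the 24 h libraries, with and without TNF, lie above those of 72 h and 1 week, and at Tph2 and Meox2 the NSP libraries are spread widely (155 to 401 and 168 to 319).

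The 6 members with the highest 24 h mean were already accessible in NSPs, with means of 154 to 556. In Plec, which encodes the cytoskeletal linker plectin (chr15:76208314-76208814), the values were 287, 338 and 321 in NSPs, 1880, 1553 and 1581 at 24 h, 533, 541 and 608 at 72 h, and 339, 316, 379 and 339 at 1 week. Near Grm4, a metabotropic glutamate receptor, they were 506, 567 and 593, then 1215, 1062 and 1344, then 575, 593 and 582, and at 1 week 154, 200, 185 and 192. The Grm4 site thus ended well below its NSP level, while the Plec libraries of 1 week overlapped those of NSPs.

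Near B3gnt2, a glycosyltransferase, the level stayed up. Its means were 160 ± 35.6 in NSPs, 1121 ± 93.0 at 24 h, 558 ± 37.2 at 72 h (SD, n = 3) and 383 ± 49.0 at 1 week (SD, n = 4). The others of this group were in Stra6, the membrane receptor for retinol-binding protein, in Selenon, a selenoprotein of the endoplasmic reticulum, and near Fbxl7, an F-box protein of ubiquitin ligases. Near Fbxl7 the NSP libraries disagreed, with 364, 90.4 and 59.8, while the 24 h values were 971, 808 and 889.

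Peaks close to the cutoff on the ratio differed little. Just inside it lay peaks in Gli2, a transcription factor of Hedgehog signalling, near Ostn and in Exoc4, with ratios of 2.003, 2.002 and 2.003. Just outside lay the peaks nearest to Ctnna2, Tenm2 and Parp11, with 1.9996, 1.999 and 1.998. A ratio of 1.5 would have given 2133 peaks and a ratio of 3 the 68 above.

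With TNF most of the 24 h rise was present, at a lower level. The library medians of the members were 80.5, 79.7 and 84.1 at 24 h with TNF, below each of the untreated 24 h libraries. Because the untreated libraries chose the members by their high values, this difference is a description with no test. The TNF mean was below the untreated mean in 481 members and above it in 102. It was at most 0.5 times the untreated mean in 41 members (7.03%), against 1.45% of all peaks tested, and at least 2 times in 3.

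Seen from NSPs, 382 members (65.5%) were at least 2 times as high at 24 h with TNF, against 18.5% of all peaks tested. The median share of the untreated rise present with TNF was 63.4% (quartiles 43.4% and 86.4%). With the TNF libraries in place of the untreated ones at 24 h and 72 h, 231 members (39.6%) were at least 2 times NSPs, 72 h and 1 week, against 0.727% of all peaks tested. The NSP libraries in both counts, and the 1 week libraries in the latter, also chose the members, so nothing is read from either difference.

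Single members ran from near loss to gain under TNF. In Heatr1, a factor of ribosome biogenesis, the 24 h values were 84.3, 81.1 and 50.5 without and 5.31, 11.9 and 7.27 with TNF, and NSPs had 2.92, 3.30 and 9.30. This site had almost no rise in the TNF-treated libraries. The next lowest in this respect were near Arl15 (means of 116 and 37.2), near Dusp26 (70.4 and 23.7) and near Galc (173 and 61.3). On the other side, the peak nearest to Ccnh, a cyclin of the CDK-activating kinase, had 76.3, 62.0 and 118 without and 166, 187 and 214 with TNF, and those near Kifc5b and Cdk5rap2 also had means at least 2 times as high with TNF.

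The 24 h and 72 h libraries with TNF took no part in choosing the peaks, so they give a test of the fall in other libraries. Whether they share animals or cultures with the libraries that chose the peaks is not known. Between these times 515 of the 583 members fell (88.3%), against 17.4% of all 88919 peaks tested (limma on log2 values, adjusted p under 0.05). None rose, against 16.2% of all peaks. At an unadjusted p under 0.05, 543 were lower and 0 higher, against 19778 and 18718 of all 88919 peaks. On the recovered reads edgeR called 519 members lower and 0 higher, and DESeq2 484 and 0. The median log2 change of the members was −1.19 (quartiles −1.53 and −0.89), and that of all peaks tested was −0.01. Time and library tag are confounded here as in the untreated groups. Only 5 members lay within 1 Mb of one of 212 peaks that were near 0 in every tagged library and present in every untagged one. Of these 5 members, 4 were called lower, those nearest to Ctla4, Kdm4b, Frmd8 and Tcf7l1, and the one nearest to Gm40378 was not (adjusted p = 0.13, limma). A fit without any peak, member or not, within 1 Mb of such a peak called 507. For this fit, edgeR and DESeq2 the share of all peaks called is not given here.

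Peaks that opened by 24 h and stayed open had other values in the same libraries, given here side by side without a test between the sets. These are 6194 peaks with a 24 h mean of at least 50 and at least 2 times that of NSPs, whose 72 h and 1 week means were also at least 2 times that of NSPs and had not fallen below the 24 h mean by more than 1.5 times. Of them 408 (6.59%) fell and 2263 (36.5%) rose from 24 h to 72 h with TNF, with a median log2 change of 0.25. Every 24 h TNF library lay above every 72 h TNF library in 521 members (89.4%), in 22.6% of all peaks tested and in 9.32% of the peaks kept open. The 24 h TNF mean was at least 2 times the 72 h TNF mean in 393 members (67.4%), against 5.21% and 0.597%.

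**Figure D3:**
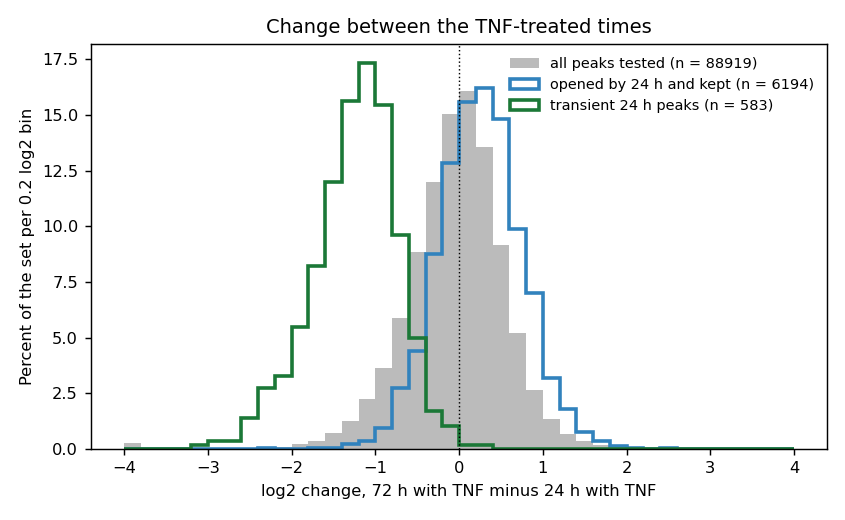
Distribution of the log2 change from 24 h to 72 h with TNF for all 88919 peaks tested (grey), the 6194 peaks opened by 24 h and kept (blue) and the 583 transient 24 h peaks (green), as percent of each set per bin. The green curve lies almost wholly below 0 with a median of −1.19, and the blue one has a median of 0.25.

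The falls with the smallest p, not always the largest in log2 change, were in different settings. Near Tph2, the enzyme that limits serotonin synthesis in neurons (chr10:115069161-115069661), the TNF values were 366, 400 and 420 at 24 h and 57.2, 42.9 and 45.6 at 72 h (log2 change −3.01 ± 0.16, adjusted p = 5.4e-19, limma). It had 155, 313 and 401 in NSPs and only 80.2, 65.5, 66.0 and 50.4 at 1 week, so this site ended below its start. In Plec the TNF values were 1372, 1440 and 1241, then 438, 491 and 534 (−1.47 ± 0.10, adjusted p = 1.6e-15, limma).

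In Cntn5 the log2 change was −1.998 ± 0.13, with 403, 434 and 453 at 24 h and 91.2, 118 and 113 at 72 h. In Meox2, a homeobox transcription factor, it was −1.64 ± 0.11, with 641, 563 and 636 against 191, 202 and 193. Near Atp6v1h, a subunit of the vacuolar proton pump, it was −2.36 ± 0.17, with 234, 284 and 362 against 64.4, 50.3 and 52.8. Near Ctla4, an inhibitory receptor known from T cells, it was −2.72 ± 0.20, with 237, 214 and 243 against 32.2, 28.1 and 44.4, and this peak is 1 of the 5 near the tag peaks. The 24 h and 72 h libraries with TNF did not overlap at any of these 6 peaks, which the naming rule required.

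With the members split into 3 groups by their 24 h TNF mean, 138 of 195 were called in the lowest group, 183 of 193 in the middle one and 194 of 195 in the highest. The median log2 changes of these groups were −1.02, −1.23 and −1.29. The mean that made the split is one side of the change tested. Shares of all peaks called at the same levels were not counted, so this trend is not read as a trait of the members. The exception in the highest group was a peak in Casp4, the caspase that senses cytosolic lipopolysaccharide in mouse. It had 102, 122 and 117 at 24 h with TNF and kept 74.2, 103 and 96.0 at 72 h with TNF, which overlap (log2 change −0.32 ± 0.18, adjusted p = 0.17, limma). Without TNF it had 59.2, 76.7 and 86.2 at 24 h and 33.5, 40.7 and 30.6 at 72 h. Only 2 members had a change above 0, the peak in Ctnna3 (0.05 ± 0.28) and that in Heatr1 (0.28 ± 0.58), and both had low values at 24 h with TNF (means of 43.2 and 8.14).

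In position the transient 24 h peaks were distal. Of the 583 peak centres, 5 (0.858%) were no more than 1 kb from where a protein-coding gene starts or ends, compared with 3.31% of the peaks kept open and 15.1% of all peaks tested. Within 5 kb the shares were 9.78%, 14.98% and 27.0%. The median distance to a gene end was 59.6 kb for the members, 29.7 kb for the peaks kept open and 20.0 kb for all peaks, and 36.0%, 22.4% and 17.9% lay over 100 kb away. Both chosen sets had to pass a minimum at 24 h and a change in time, which the full table did not.

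**Figure D4:**
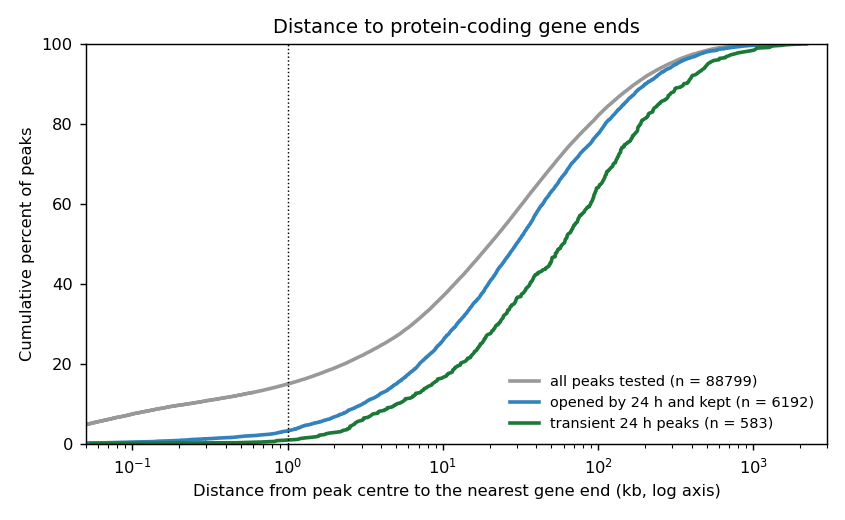
Cumulative percent of peaks against the distance from the peak centre to the nearest protein-coding gene end (kb, log axis; dotted line at 1 kb) for all peaks tested, peaks opened by 24 h and kept, and transient 24 h peaks, where a gene end could be assigned. The transient 24 h peaks reach 0.858% at 1 kb against 15.1% of all peaks, and their curve lies to the right of both others.

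Members inside genes were fewer and the genes were long. Of the 583, 245 (42.0%) lay in a protein-coding gene, against 53.4% of the peaks kept open and 53.6% of all peaks. The median length of the gene was 174 kb for members, 123 kb for peaks kept open and 103 kb for all peaks, and 52 of the 245 (21.2%) lay in a gene over 500 kb long, against 10.9% and 10.0%. Whether they lay in exons or introns was not assigned, since the gene table has no exons.

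The 245 members inside genes were spread over 231 genes, 8 of which held 2 and 3 held more. Ptprd, a receptor tyrosine phosphatase of neurons, held 4 among 35 tested peaks, with 24 h means of 67.9, 118, 101 and 67.6 and log2 changes with TNF from 24 h to 72 h of −1.30, −1.13, −1.24 and −1.75. Erc2, a protein of the presynaptic active zone, held 3 among 35, and Pde4d, a cyclic AMP phosphodiesterase, 3 among 46. All 10 of these were called lower at 72 h with TNF, as were 88.3% of all members and 17.4% of all peaks tested.

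Few members lay near another member. Another member lay within 5 kb of 10 of them, within 10 kb of 16 and within 100 kb of 41 (7.03%). These counts, and that of members with other peaks nearby, were not made for all peaks or for a set of equal size. They only describe the members. Other peaks lay within 5 kb of 183 members (31.4%), 222 in all. Of those neighbours 63 (28.4%) had their highest untreated mean at 24 h, compared with 15.3% of all peaks tested, and 23.9% had a 24 h mean at least 2 times that of NSPs, compared with 16.6%. The median ratio of 24 h to NSPs was 1.11 in the neighbours and 0.946 in all peaks. The share of members by chromosome ran from 0 on Y and 1.54% on 19 (9 members) to 7.89% on 1 (46), and chromosome 10 held 7.03% of the members and 5.00% of the peaks tested.

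The 5 members at gene ends were those of Stra6, Fech, Rrad, Mocos and Dhrs7c. In Stra6 the values were 349, 498 and 538 in NSPs, 995, 783 and 1115 at 24 h, 418, 303 and 461 at 72 h, and 352, 337, 376 and 335 at 1 week. This peak was 18.7 kb from the start RefSeq gives for Stra6 and 0.671 kb from a gene end, so it does not mark the start of that gene. At Fech, the ferrochelatase of heme synthesis, the NSP libraries had 167, 39.6 and 31.2 and the 24 h libraries 189, 205 and 160. At Rrad, a small GTPase that inhibits calcium channels, the 24 h values were 126, 94.4 and 132 against at most 55.0 in the other untreated libraries, and with TNF the level fell less than at most members (91.1, 100 and 111, then 75.1, 53.2 and 78.0, log2 change −0.56 ± 0.20, adjusted p = 0.031, limma). At Mocos, an enzyme of the molybdenum cofactor, and at Dhrs7c, a short-chain dehydrogenase, the 24 h means were 105 ± 16.9 and 64.6 ± 24.1 (SD, n = 3).

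Lists of genes that could be thought of in this setting held few of the members. No member was nearest to one of 26 serum response and YAP/TEAD target genes, 19 genes of EGF and FGF receptor signalling, 21 of TGF-beta, BMP and Id, 12 of the oligodendrocyte lineage or 22 of reactive astrocytes and NF-kB. All peaks tested had 226, 204, 293, 76 and 131 such peaks (0.254%, 0.229%, 0.330%, 0.0855% and 0.147%). These shares are small, so that few members would be met at the share of all peaks.

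Among AP-1 and immediate early genes the single member was 385 kb from Myc (0.172%, against 0.272% of all peaks). It had 53.5, 45.7 and 96.1 at 24 h, 21.3 to 32.7 in NSPs and, with TNF, 63.7, 74.3 and 82.0 at 24 h and 31.0 to 32.2 at 72 h (log2 change −1.19 ± 0.26, adjusted p = 0.00049, limma). For the astrocyte list the members were near Gja1, which encodes connexin 43, and Nfia, a gliogenic transcription factor (0.343%, against 0.342%). The Nfia peak, 147 kb away, had 145, 94.4 and 126 at 24 h, 68.3, 50.9 and 55.2 in NSPs, 73.3, 57.4 and 40.8 at 72 h, and 36.1, 32.0, 24.2 and 39.7 at 1 week. Near Gja1 the 24 h libraries disagreed, with 64.9, 23.6 and 65.3.

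The progenitor and Notch list had 2 members (0.343%, against 0.340%), 1 of them near Jag1, a Notch ligand. Near Jag1 the values were 62.6, 73.8 and 86.2 at 24 h, 26.9, 25.0 and 35.2 in NSPs, 15.4, 41.9 and 16.6 at 72 h, and 12.3, 3.90, 8.80 and 16.1 at 1 week. Adhesion and matrix genes had members near Itga1, a collagen-binding integrin subunit, and Tnc, the matrix protein tenascin-C (0.343%, against 0.267%). The Tnc peak lay 451 kb away, with 44.4, 57.5 and 51.7 at 24 h and at most 26.3 in the other untreated libraries. From 24 h to 72 h with TNF, the Jag1, Itga1, Tnc, Gja1, Nfia and Myc peaks fell, with log2 changes from −1.08 (Gja1) to −2.17 (Tnc).

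Neuronal differentiation genes had 4 members (0.686%, against 0.191% of all peaks and 0.129% of the peaks kept open), too few to read as more than a count. They included peaks near Stmn2, a microtubule regulator of growing axons, in Elavl4, an RNA-binding protein of neurons, and near Tbr1, a transcription factor of cortical neurons. The Stmn2 peak had 232, 227 and 266 at 24 h, 98.1, 23.6 and 21.9 in NSPs, 93.9, 122 and 133 at 72 h, and 64.4, 54.6, 48.4 and 81.5 at 1 week. With TNF, the Stmn2, Elavl4 and Tbr1 peaks fell from 24 h to 72 h, with log2 changes of −1.71, −0.86 and −1.81. Summed over the 3 neuronal markers with a gene-end peak (Snap25, Syt1, Tubb3), the level was 902 in NSPs, 845 at 24 h, 892 at 24 h with TNF and 747 to 767 in the tagged 72 h groups. The markers differed: Syt1 had 316 in NSPs, 399 at 24 h, 261 at 72 h and 249 at 1 week. From NSPs to 24 h, Snap25 went from 330 to 250 and Tubb3 from 256 to 197. Rbfox3 and Dcx had no gene-end peak. The part of neuronal cells in these members was not tested.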

How the data were processed

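ATAC-seq signal was analysed for 19 libraries, grouped by their sample titles. According to the methods and the submitters' processing notes, the authors checked reads with FastQC, trimmed them with Trim Galore and aligned them with Bowtie2 to mm10. SAMtools was used to drop mitochondrial reads, MACS2 to call peaks, HOMER to annotate them and DiffBind to test them, after peaks in blacklisted regions had been discarded. Tool versions, the treatment of duplicates, the shift of cut sites and the normalisation were not given in the sources used here. An unshifted cut site would lie a few bases off, which is small against the peak width. The deposited table holds 1 signal value per peak and library, made by the authors from reads in peaks. All values (100%, within 1e-6) were whole multiples of the lowest value of the library, so they are reads divided by a size factor, and no value was under 1 read, so that a listed single read may stand for 0. Odd numbers made up 61.8% of the recovered values between 2 and 20, so a recovered read may not be a single fragment. No column of another sample was present.

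Members and gene lists were chosen with earlier results of these data known. Values were tested as log2(value + 1) by limma-trend (limma 3.58.1, R 4.3.3) on the 6 TNF libraries, two-sided, adjusted by Benjamini-Hochberg over 88919 peaks that filterByExpr kept with a minimum count of 10. All 583 members were among them. Changes on this scale understate those of low peaks. Descriptive changes came from 1 fit to all 19 libraries. Contrasts with untreated libraries were not tested, because those libraries chose the members. The count tests edgeR 4.0.16 and DESeq2 1.42.0 on the recovered reads were alternatives, beside other scalings, pseudocounts of 0.5 and 5, no filter, all libraries in 1 fit, a replicate block and leaving out each library. Only the limma fit to the TNF libraries was tested on simulated reads, with far fewer changed peaks than were called in these data. The alternatives were not tested in this way.

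Named peaks were the 10 members with the highest ratio, the 6 with the highest 24 h mean, the 6 with the smallest p among calls without overlap between the TNF groups, the 3 peaks on either side of the ratio of 2, up to 6 at gene ends, and up to 3 for each gene list by 24 h mean. The peaks in or near Chrnb3, Lurap1l, Csmd1, Defb33, Heatr1, Arl15, Dusp26, Galc, Ccnh, Kifc5b, Cdk5rap2, Casp4, Ctnna3, Tbr1, Ptprd, Erc2, Pde4d and those with a promoter window were chosen after their values were seen. Positions are as deposited. Gene ends and promoter windows came from RefSeq tables of GRCm38.p6, the assembly of mm10, and the promoter table has no entry on chromosome 18. The peaks' own sequences and GC content were not analysed here. Some members that this rule names are not reported here.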

Additional observations from a re-analysis of the deposited data

Results flagged for a closer look

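The 1 week values were examined for the 37 named members and for the median over all members, 38 in all, and in 3 of them 1 of the 4 libraries lay far from the others by Dixon's 95% criterion, and chance flags about 1 in 20 such groups. The library was replicate 3 each time, the shallowest of the series with 9640256 reads in peaks, where 1 read counts as 2.20. The peak nearest to Atp6v1h had 61.6 normalised reads in it, against 40.7 to 44.1 in the other 1 week libraries. The peak in Nisch had 33.0 against 5.46 to 7.51. The peak in Selenon had 354 against 253 to 266. The part of depth in these values was not tested.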

How the results depend on the processing

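The fall from 24 h to 72 h with TNF kept its direction under every alternative run. From 459 to 502 of the 583 members were called lower when single TNF libraries were left out, 433 with all 19 libraries in 1 fit, 484 with loess offsets, 514 with total-read scaling and 505 without the filter, and none was called higher. The median log2 change lay between −1.22 and −1.11. Of the 37 named members none reversed. Gli2, at the ratio cutoff, lost its call most often, and Gja1, Elavl4, Rrad and Tnc lost theirs under some alternatives. Same-numbered TNF libraries of 24 h and 72 h did not deviate together (correlations of −0.0075, −0.0093 and −0.0131). Such values cannot exclude a shared animal or culture, so whether the numbers pair the libraries was not settled. At 24 h, same-numbered libraries without and with TNF had correlations of 0.034, 0.026 and 0.106, the last for replicate 3. Differently numbered ones had −0.066 to 0.036. The TNF libraries may thus not be wholly independent of those that chose the members, and the effect of this was not tested. With the replicate block 514 members were called lower. The block follows the numbers in the sample titles. The library names number the 72 h TNF libraries 2 to 4 instead, which leaves 2 shared numbers (correlations of 0.00041 and 0.0060). A replicate block by those names, chosen after seeing the data, called 435 members lower and none higher. The share of all peaks called under each alternative is not given here. These counts therefore do not show how far the members exceed all peaks in the same fit.

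The number of members depended on the thresholds. It was 2133 with a ratio of 1.5, 68 with a ratio of 3 and 295 with a 24 h mean of at least 100. It was 706 with total-read scaling (508 of them among the 583) and 495 to 735 when single untreated libraries were left out. The share no more than 1 kb from a gene end was 0.858%, and 0% with a ratio of 3. Within 5 kb of a gene end it was 9.78% for the 583 members. The median share of the rise present at 72 h was 17.5% with total-read scaling, 10.6% with a ratio of 1.5, 11.2% with a ratio of 3 and 7.88% to 11.1% without single libraries. At 1 week it was 0.771% with a ratio of 3 and −4.60% to 0.498% without single libraries, turning positive without NSP replicate 1, so whether it lay above or below 0 was not settled. The cause of these shifts was not tested. The planned motif shares in peaks were not run, since no genome was used. The part of depth in the lower share of calls among members with a low 24 h TNF mean was not tested.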
